A study of Rattus norvegicus with 16 samples.

Results

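Expression of 10 genes of the lysosome was followed in the rat hippocampus after experimental brain injury: the cathepsin genes Ctsb, Ctsc, Ctsd, Ctsh, Ctsk, Ctss and Ctsz, the legumain gene Lgmn, and the genes of the lysosomal membrane proteins Lamp1 and Lamp2. They were taken by symbol, as every non-control probe that carries one of these 10 names in the scanner files. Each gene had 1 probe, spotted once per array, so 10 of the 30367 probes of the array are described. All 10 passed the filter for brightness, among 22827 probes tested, and as scanned all 10 were well above background on 16 of 16 arrays and saturated on none.

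Cathepsins are the proteases of the lysosome, the acidic compartment in which cells degrade proteins that are taken up or delivered by autophagy. Most are cysteine proteases, and cathepsin D is an aspartic protease. Legumain cuts after asparagine and converts several cathepsins to their mature forms, and Lamp1 and Lamp2 are heavily glycosylated proteins of the lysosomal membrane. In the brain these genes are active in neurons and glia, and microglia are rich in cathepsins. Release of cathepsins from damaged lysosomes is a known feature of injured neurons.

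The arrays came from the hippocampus of adult male Sprague-Dawley rats, collected 24 h after parasagittal fluid percussion injury or the corresponding time in controls. Naïve rats (n = 3) had neither surgery nor drug, Sham rats (n = 2) were anesthetized and prepared without injury, and TBI rats (n = 3) were injured and given no drug. The other injured rats received PMI (TBI+PMI, n = 3) or JM6 (TBI+JM6, n = 3) by oral gavage, or E33 (TBI+E33, n = 2), by its place among the study's groups the estradiol treatment. The labels give a subcutaneous and the methods an intraperitoneal route for it. The methods state 3 rats per group, and 2 Sham and 2 TBI+E33 arrays were analysed here. Each array held RNA of 1 rat and of the whole hippocampus, so fewer cells of a type and less RNA per cell cannot be told apart. The labels do not say which rats were operated on together.

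The Naïve, Sham and TBI arrays were scanned in one session and the drug arrays in another, so drug and session cannot be told apart. Both Sham arrays lay on one slide and the TBI arrays on another, joined only by Naïve arrays on each. Between 16282 and 18245 probes were well above background on the arrays of the first session, and 20259 to 24984 on those of the second. Each array's signal was divided by the 75th percentile over its own probes well above background, so a scaled signal of 1 equals that percentile. Values were compared between arrays and never between genes. All 9 neuronal markers on the array were above background in every rat. A gene was called when its limma p, adjusted by Benjamini-Hochberg over all tested probes, was under 0.05.

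**Figure D1:**
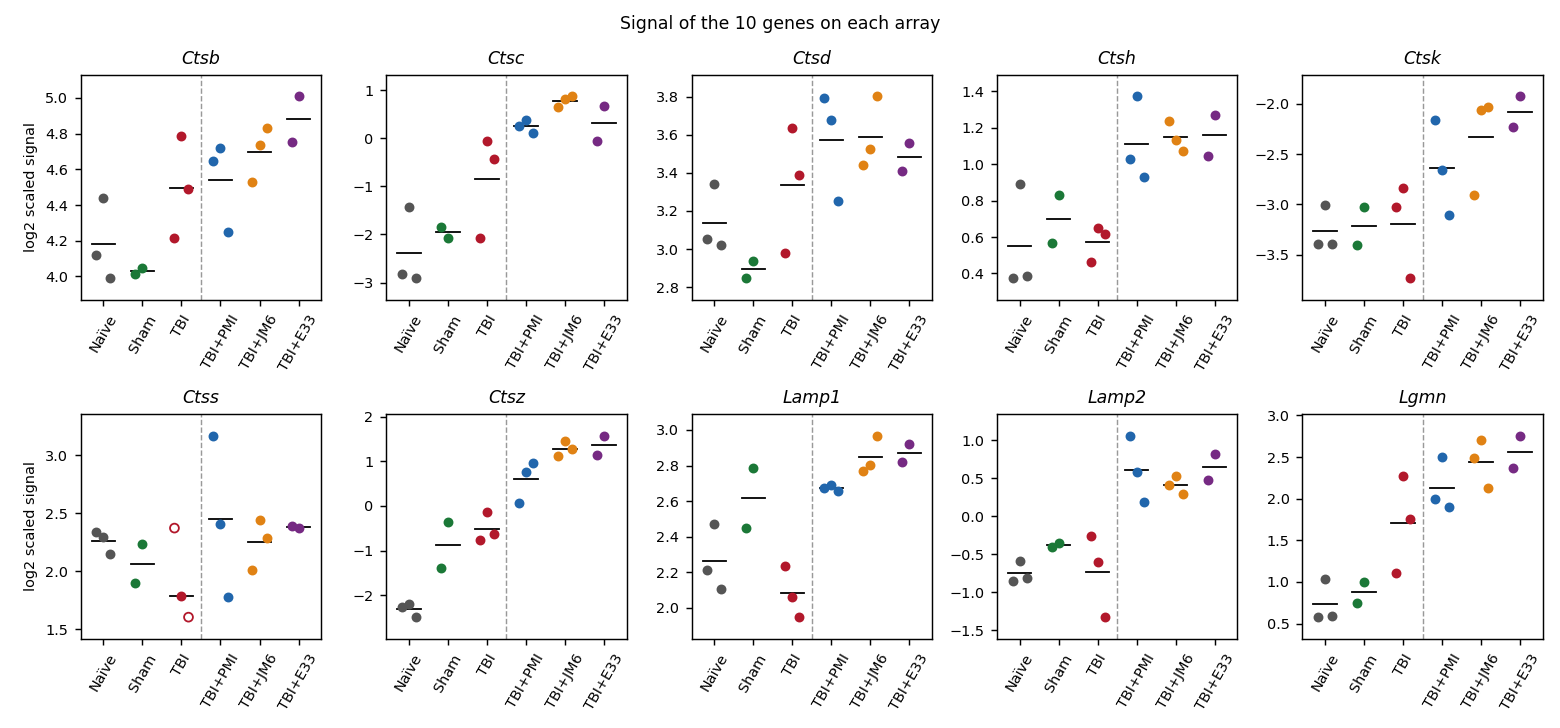
Log2 scaled signal of each gene (y axis, a panel per gene) on each array (points, in replicate order) of the 6 groups (x axis), with the group mean as a bar and the scanning sessions parted by a dashed line; open circles are the 2 Ctss spots left out for a flag. Ctsz separated the Naïve arrays, between 0.179 and 0.221 on the linear scale, from all other arrays.

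In TBI vs. Sham none of the 10 genes was called, and over all tested probes 2.93% were called higher and 6.49% lower. These shares depend on the fit: of 22799 probes 667 were called higher and 1479 lower, but 3 and 1 with normexp background correction, 5 and 5 with the compared groups alone, 3 and 28 with the slide as a fixed block. With limma 2 of the 10, Lamp1 and Lgmn, had an unadjusted p under 0.05, as had 5933 of the 22799 probes. The test of the study's methods, with an adjusted p, called 0 of the 10. Over all probes it called only 0 higher and 1 lower of 22789, so it could hardly call any of them. The study's own limit, an unadjusted p under 0.05 with more than 1.2-fold, called 1 of the 10 lower. Its share over all probes was not counted, so this count cannot be set against the array. The values of 6 genes lay above those of Sham and 4 below, with a median log2 difference of 0.19, against -0.03 over all probes. The proteases Ctsb, Ctsc, Ctsd and Lgmn had the larger positive differences, and the membrane proteins Lamp1 and Lamp2 the larger negative ones.

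Lgmn, the asparaginyl endopeptidase, had a scaled signal of 1.49, 2.05 and 1.51 in the Naïve rats, 1.68 and 2.01 in the Sham rats, and 2.16, 4.85 and 3.37 in the TBI rats. All 3 TBI arrays lay above the 5 others of that session, with the first TBI rat close to them. The log2 difference of TBI from Sham was 0.84 ± 0.32 (SE) with an adjusted p of 0.115, and from Naïve 0.98 ± 0.28 with an adjusted p of 0.0696. Without TBI replicate 1 both differences were called, at 1.14 (adjusted p 0.0187) and 1.28 (adjusted p 0.0124). Without TBI replicate 2 they were 0.55 and 0.70, and neither was called. Leaving out TBI replicate 1 also raised the TBI vs. Sham calls over all probes, from 667 higher and 1479 lower to 1554 and 2520. The Lgmn difference from Naïve was also called with scaling over all probes, with probes above background on all arrays, and with slide as a random block. Normexp background correction gave 0.50 from Sham (adjusted p 0.802) and 0.78 from Naïve (adjusted p 0.465).

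Ctsc encodes cathepsin C, which activates the granule proteases of leukocytes. Its scaled signal was 0.142, 0.371 and 0.134 in the Naïve rats, 0.279 and 0.238 in the Sham rats, and 0.239, 0.965 and 0.741 in the TBI rats. TBI replicates 2 and 3 were well above all controls, and TBI replicate 1 was at the level of the Sham rats. The log2 difference from Sham was 1.11 ± 0.53 with an adjusted p of 0.204, and from Naïve 1.53 ± 0.47 with an adjusted p of 0.0834. Leaving out TBI replicate 1 gave 1.72 (adjusted p 0.0149) and 2.14 (adjusted p 0.00601), and leaving out Naïve replicate 2, the highest of the Naïve rats, gave 2.01 against Naïve (adjusted p 0.0365). Leaving out TBI replicate 2, the highest TBI rat, gave 0.71 from Sham and 1.14 from Naïve, and neither was called.

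The 60-base probes of Ctsz and Lgmn are shown because Ctsz was the gene called against Naïve rats, and Lgmn had TBI arrays that all lay above the Naïve and Sham arrays. The scanner files give a gene name, a transcript and a sequence for the Ctsz probe, but no genome position. Aligned to rn4, the Lgmn probe spans 309 bases of chromosome 6 (126669400 to 126669708, minus strand), more than its own length, so its alignment is split by a gap. The probes of Lamp2 (chromosome X, 6931712 to 6938320) and Ctsh (chromosome 8, 94986941 to 94989247) also span more than 60 bases. The other positions in rn4 are chromosome 1, 144661035 to 144661094, for Ctsc, chromosome 1, 202619669 to 202619727, for Ctsd, chromosome 15, 42423613 to 42423672, for Ctsb, chromosome 2, 190405601 to 190405660, for Ctsk, chromosome 2, 190466474 to 190466533, for Ctss, and chromosome 16, 81214430 to 81214489, for Lamp1. No rn4 annotation was used here, so exons are not given.

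Ctsz probe: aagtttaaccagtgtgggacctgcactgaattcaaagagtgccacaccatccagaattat
Lgmn probe: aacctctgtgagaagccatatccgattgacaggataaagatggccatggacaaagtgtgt

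Ctsb and Ctsd, the cysteine and the aspartic protease with broad roles in lysosomal degradation, differed less. The scaled signal of Ctsb was 15.9 to 21.7 in the Naïve rats, 16.1 and 16.6 in the Sham rats, and 18.5, 27.6 and 22.5 in the TBI rats. All TBI values of Ctsb lay above both Sham values, with a log2 difference of 0.47 ± 0.22 and an adjusted p of 0.195. Ctsb was called with scaling over all probes (0.53, adjusted p 0.0435) and with the trend on probe GC content removed (0.52, adjusted p 0.0377). For Ctsd the difference was 0.44 ± 0.22 with an adjusted p of 0.236, and its lowest TBI array, at 7.89, lay just above the higher Sham array, at 7.67. Against Naïve rats the arrays of both genes overlapped.

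Lamp1 and Lamp2 had the most negative log2 differences from Sham. Lamp1 was at 5.47 and 6.89 in the Sham rats and at 4.71, 4.18 and 3.86 in the TBI rats, with the 3 Naïve rats between 4.30 and 5.56. Its TBI and Sham arrays did not overlap, and its log2 difference of -0.54 ± 0.17 had an adjusted p of 0.0648. Without TBI replicate 1 it was -0.61 and was called (adjusted p 0.0358). It was also called under quantile normalization, with scaling over all probes, with probes above background on all arrays, and with slide as a random block. It was -0.25 with E1A scaling (adjusted p 0.726), -0.30 with slide as a fixed block (adjusted p 0.887) and -0.37 without Sham replicate 2 (adjusted p 0.348). Against Naïve the difference of Lamp1 was -0.18 ± 0.15 with an adjusted p of 0.543, and 0.19 with E1A scaling. Lamp2 was at 0.756 and 0.786 in the Sham rats and at 0.836, 0.657 and 0.398 in the TBI rats, which overlapped the Sham values (log2 difference -0.36 ± 0.30, adjusted p 0.479).

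**Figure D2:**
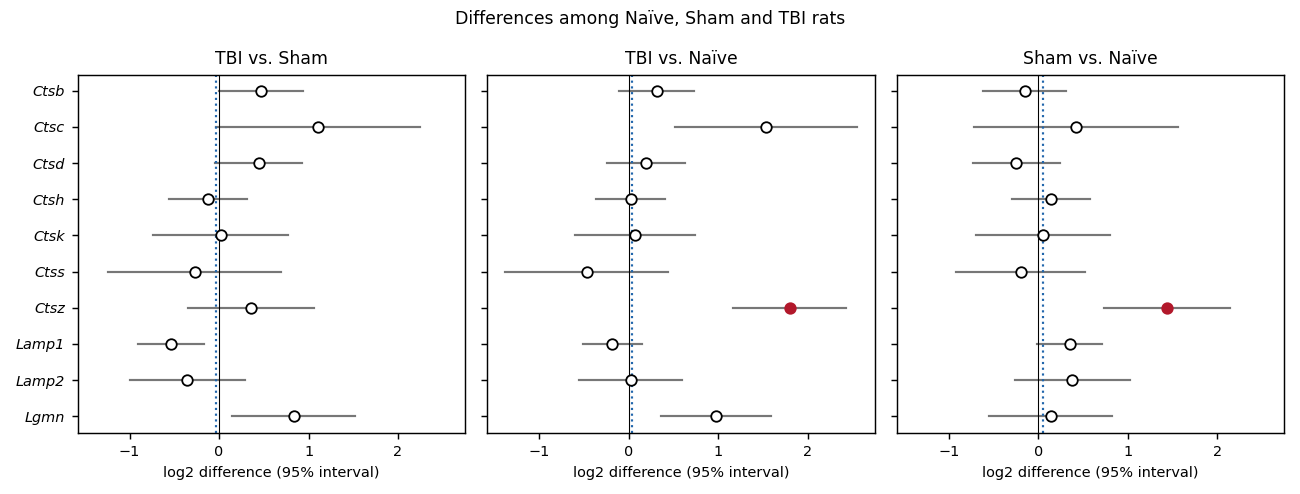
Log2 difference (x axis, with its 95% interval) of the 10 genes (y axis) for each pair of the Naïve, Sham and TBI groups; filled points were called and the dotted line is the median of all tested probes. Ctsz alone was called, at 1.80 for TBI and 1.44 for Sham, each against Naïve.

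The promoters of Lamp1 and Ctsd are shown because they hold the CACGTG motif, the E-box core of the element that TFEB and its relatives bind in many lysosomal genes. RefSeq (GRCr8) gave the 250 bases before the start of 9 of the 10 genes, and none for Ctsb. The motif, which reads the same on both strands, lay 5 times in that of Lamp1 and 2 times in that of Ctsd, and in none of the other 7. Of all 33469 promoters of the same length 5.59% hold it. The longer form TCACGTGA, which contains it, was in both, and in 0.657% of all promoters. Capitals mark CACGTG.

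Lamp1, chr16:83075064-83075313, minus strand: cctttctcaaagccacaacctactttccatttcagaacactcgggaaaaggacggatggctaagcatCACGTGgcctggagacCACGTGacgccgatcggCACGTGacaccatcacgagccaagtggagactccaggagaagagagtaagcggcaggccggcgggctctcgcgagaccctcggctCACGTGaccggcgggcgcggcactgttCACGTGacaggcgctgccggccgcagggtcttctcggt
Ctsd, chr1:206968822-206969071, minus strand: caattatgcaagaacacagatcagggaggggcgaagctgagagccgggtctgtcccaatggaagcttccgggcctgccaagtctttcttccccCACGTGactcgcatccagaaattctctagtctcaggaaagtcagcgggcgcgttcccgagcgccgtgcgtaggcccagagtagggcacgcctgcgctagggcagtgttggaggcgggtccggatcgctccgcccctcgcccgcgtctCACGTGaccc

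These 2 genes did not move alike. The TBI vs. Sham difference was negative for Lamp1 and positive for Ctsd, and neither was called. A match of letters is not evidence of a bound site.

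Ctsz, a carboxypeptidase of the cathepsin family that is high in microglia and macrophages, was the 1 gene called in TBI vs. Naïve and the 1 gene called in Sham vs. Naïve. Its scaled signal was 0.210, 0.221 and 0.179 in the Naïve rats, 0.385 and 0.782 in the Sham rats, and 0.587, 0.918 and 0.644 in the TBI rats. Every Sham and every TBI array lay above every Naïve array, and the Sham and TBI arrays overlapped. Against Naïve rats it rose in TBI rats by 1.80 ± 0.29 on the log2 scale (adjusted p 0.00774), and in Sham rats by 1.44 ± 0.33 (adjusted p 0.0201). Over all probes 2.98% were called higher and 1.73% lower in TBI rats against Naïve rats, and 6.57% higher and 1.52% lower in Sham vs. Naïve, so 1 of 10 is not far from the share of the array.

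The difference of TBI from Sham in Ctsz was 0.36 ± 0.33 (adjusted p 0.524), with a 95% interval from -0.35 to 1.06. Leaving out Sham replicate 1 or 2 moved it to -0.15 or 0.87. The Sham call rests on few rats: without Sham replicate 2 the log2 difference from Naïve was 0.93 (adjusted p 0.195), and without Naïve replicate 3 it was 1.35 (adjusted p 0.0643). In TBI vs. Naïve the call of Ctsz held with each rat left out, with adjusted p between 0.00498 and 0.0325. Within a slide, where the slide cannot enter, the difference was 1.35 for the Sham and Naïve rats of the first slide and 1.98 for the TBI rats and the Naïve rat of the second. Sham replicate 2, the Sham rat with more Ctsz, also had the larger sum of microglial markers, 32.7 against 17.8. On Sham replicate 1 that sum lay below the 18.95 to 21.52 of the Naïve rats, while its Ctsz, 0.385, lay above theirs. The part of microglia was not tested. The call was lost in both comparisons with a normexp background correction, with the slide as a fixed block, with the compared groups alone and with the adjusted test of the study's methods, and in Sham vs. Naïve also with E1A scaling. The log2 differences there were 1.63 and 1.31 with normexp for TBI and Sham, 1.80 and 1.44 with the compared groups alone, and 1.53 for Sham with E1A. Few probes of the array were called in these settings. In TBI vs. Naïve 35 were higher and 5 lower with normexp, 3 and 40 with the fixed block. With the compared groups alone they were 13 and 2, and with the adjusted test 0 and 1. In Sham vs. Naïve they were 13 and 1, 8 and 7, 238 and 65, and 0 and 0, in the same order.

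The remaining cathepsins showed little difference among Naïve, Sham and TBI rats. The aminopeptidase gene Ctsh ranged from 1.30 to 1.86 in Naïve, 1.48 to 1.77 in Sham and 1.38 to 1.57 in TBI rats. Ctsk, best known from osteoclasts, was dim, from 0.0753 to 0.140 over the 8 arrays. Ctss, a cathepsin of microglia and other antigen-presenting cells, was at 5.05, 4.92 and 4.44 in the Naïve rats and 3.72 and 4.70 in the Sham rats. Its spots on TBI replicates 1 and 3 carried the flag for uneven spots and were left out, so its TBI value of 3.46 stands for 1 rat. The left-out spots would have read 5.18 and 3.04, on both sides of it, and with them kept Ctss was not called either. None of the 3 genes was called in any comparison of these groups.

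The TBI rats differed among themselves in a way that the members shared only in part. Of the 9 genes measured on all TBI arrays, TBI replicate 1 was the lowest of the 3 rats for 6 (Ctsb, Ctsc, Ctsd, Ctsh, Ctsz and Lgmn) and the highest for Lamp1 and Lamp2. Against the mean of the other two it was 3.54-fold lower for Ctsc and 1.87-fold lower for Lgmn, while the median over all probes differed by -0.07 on the log2 scale. Marker lists moved beside these genes. The summed scaled signal of 11 microglial markers, all of them above background on every array, was 31.7 on TBI replicate 1 and 38.3 and 39.1 on the other two, against 17.8 and 32.7 in Sham and 18.9 to 21.5 in Naïve rats. In TBI vs. Sham 2 of the 11 were called higher and 2 lower. Oligodendrocyte markers were highest on TBI replicate 1, at 112.2 against 77.0 and 55.6, and so were endothelial markers, at 3.45 against 2.06 and 2.29. The same held for neuronal markers, at 24.6 against 18.4 and 16.9, and astrocyte markers, at 52.2 against 47.5 and 47.2. Choroid plexus and red blood cell markers were also highest there, the latter with 1 spot left out on TBI replicate 3. All 7 oligodendrocyte markers were lower in TBI vs. Sham, with a median log2 difference of -1.17, and 4 were called.

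For 12 markers of blood-derived leukocytes, of which 11 were tested, the sum was 2.07, 8.16 and 2.35 in the TBI rats, 1.28 and 1.96 in the Sham rats and 0.916 to 1.11 in the Naïve rats. On TBI replicate 3 the spot of 1 of these markers was left out for a flag, so its sum covers 1 gene fewer. Of these 11, 4 were called higher in TBI vs. Sham and 0 lower. The granulocyte marker Mpo was too dim to be tested. Choroid plexus markers, which mark tissue next to the hippocampus, reached 76.8 on Naïve replicate 2 and 122 on Sham replicate 1, against 2.35 to 4.92 on the other Naïve and Sham arrays and 0.199 to 3.55 on the TBI arrays. Neuronal markers summed to 23.6 to 26.4 in Naïve, 30.5 to 33.3 in Sham and 16.9 to 24.6 in TBI rats, and all 9 tested were lower in TBI vs. Sham, with 2 called. The part of cell types in the differences of the lysosomal genes was not tested.

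**Figure D3:**
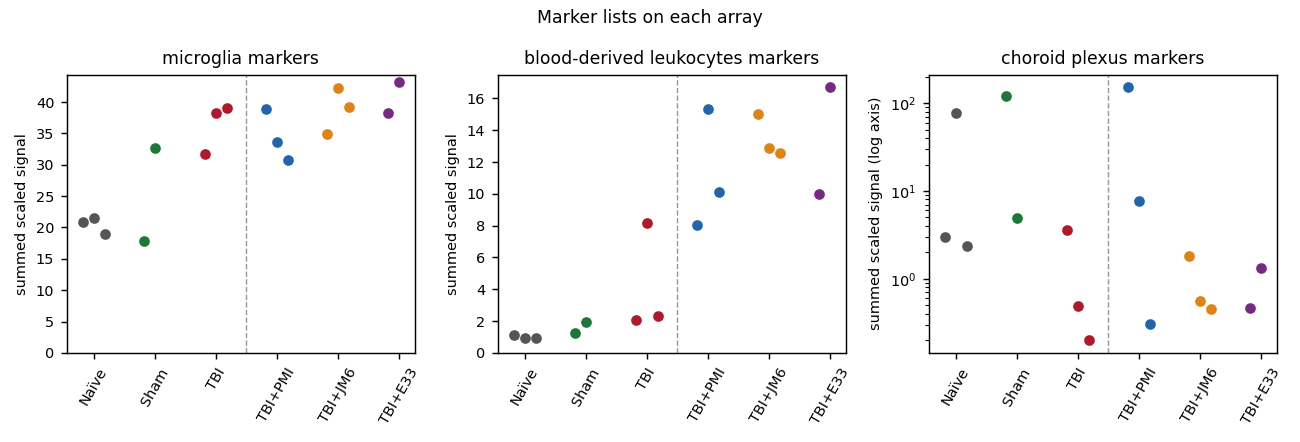
Summed scaled signal (y axis, logarithmic for choroid plexus) of 3 marker lists on each array (points) by group (x axis), with the scanning sessions parted by a dashed line. Microglial markers were between 31.7 and 39.1 in the TBI rats, and choroid plexus markers were high on 1 Naïve, 1 Sham and 1 TBI+PMI array.

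The other genes of the pathway gave a background for these differences. Of 118 further lysosomal genes listed, 109 had a probe and 96 were tested, and in TBI vs. Sham 3 of them (3.12%) were called higher and 5 (5.21%) lower, near the 2.93% and 6.49% of all probes. Cd68, a lysosomal glycoprotein of macrophages and microglia, rose by 2.68 ± 0.60 on the log2 scale (adjusted p 0.0196), and Gpnmb, a glycoprotein of phagocytes, by 2.47 ± 0.57 (adjusted p 0.0216). Litaf, a membrane protein of late endosomes and lysosomes, rose by 2.20, but against 1 Sham array. Without Sham replicate 1 it had no Sham value, so its Sham mean was that of this rat. It counted as above background on 2 of 3 TBI and 1 of 2 Sham arrays, where a spot left out for a flag counts as not above. Among the hydrolases and their activators 3 of 35 fell, namely Psap, the precursor of the saposins (-1.45, adjusted p 0.00737), Ppt2 (-0.96, adjusted p 0.0341) and the acid glucosidase gene Gaa (-0.75, adjusted p 0.0295). The proton pump gene Atp6v0e2 (-1.32, adjusted p 0.0101) and Tmem55b (-1.13, adjusted p 0.0332) also fell. These 8 calls depend on the fit: 0 of the 8 held with normexp background correction, with the compared groups alone, with the slide as a fixed block or with the adjusted test of the study's methods, and 2 held with E1A scaling, while the sign of all 8 held under each of these. Without TBI replicate 2 or TBI replicate 3 they were 2 of 8, Psap and Atp6v0e2, and without Sham replicate 1 or 2 they were 2 of 7 tested and 3 of 8. None of the 6 other cathepsins tested, of the 8 cystatins and other inhibitors, or of the 3 transcription factors of lysosomal genes was called. Against Naïve rats, 4 of the 96 were called higher and 0 lower in TBI rats, and 7 higher and 1 lower in Sham rats, beside 2.98% and 1.73%, and 6.57% and 1.52%, of all probes.

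The 5 genes with the profile most like the mean of the 10 over the 8 Naïve, Sham and TBI arrays were taken from 11542 candidates, as a description. They were MGC94192 (Pearson r 0.99), a transcript known only by its Ensembl identifier (r 0.99), Adam15 (r 0.98), Taf1d (r 0.98) and Aimp2 (r 0.98). The points share their slides and scaling, and the mean profile was highest on TBI replicate 2 (0.49) and lowest on Naïve replicate 3 (-0.40).

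The drug groups, all scanned in the second session, were above the TBI rats of the first session over most of the array. The median log2 difference over all probes was 0.79 in TBI+PMI vs. TBI, 0.99 in TBI+JM6 vs. TBI and 1.08 in TBI+E33 vs. TBI, and 56.7%, 69.9% and 70.2% of probes were called higher, against 0.0482%, 0.175% and 0.092% lower. This excess depends on the scaling. Quantile normalization called 2274, 3163 and 2376 probes higher and 2103, 3045 and 2282 lower, and with the GC trend removed 3535, 4291 and 4059 were higher and 6811, 7394 and 7163 lower. Under the first scaling 4, 7 and 6 of the 10 genes were called higher and 0 lower. Their medians of 0.57, 0.75 and 0.82 were below those of the array, and 7, 7 and 6 of the 10 lay below the median of all probes. Among the 96 other lysosomal genes 51, 64 and 58 were called higher, with medians of 0.67, 0.73 and 0.82. The 3 comparisons share the TBI rats.

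Ctsz had a scaled signal of 1.05, 1.70 and 1.93 in TBI+PMI, 2.18, 2.75 and 2.41 in TBI+JM6, and 2.20 and 2.98 in TBI+E33 rats. All 8 arrays were above the highest TBI array, 0.918, as they were for 59% of the probes measured on all arrays. Its log2 difference from TBI was 1.10 ± 0.29 (adjusted p 0.00665), 1.79 ± 0.29 (adjusted p 0.000202) and 1.86 ± 0.33 (adjusted p 0.000378), which is 0.31, 0.80 and 0.79 above the median of all probes. The comparison was repeated under 5 scalings: the one above, quantile normalization, the 75th percentile of all probes, E1A control spots, and removal of the trend with probe GC content. The sign of Ctsz held under all 5 in all 3 comparisons. Its call held under 4 of the 5 for JM6, all but GC trend removal, under 3 for E33 and under 1 for PMI.

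The scaled signal of Ctsc was 1.2, 1.29 and 1.07 in TBI+PMI, 1.56, 1.75 and 1.83 in TBI+JM6, and 0.966 and 1.60 in TBI+E33 rats, against 0.239, 0.965 and 0.741 in TBI rats. It was called with JM6 (1.62 ± 0.47, adjusted p 0.00847), a call lost under the other 4 scalings, and missed the limit with PMI (1.10 ± 0.47, adjusted p 0.0631) and E33 (1.16 ± 0.53, adjusted p 0.0635). The lowest drug array, 0.966, was at the level of the highest TBI array, 0.965. Without TBI replicate 1, the lowest TBI array, the differences in Ctsc were 0.49, 1.02 and 0.56 with PMI, JM6 and E33, and without TBI replicate 2 they were 1.49, 2.02 and 1.56, all called. The Lamp2 signal was 2.09, 1.496 and 1.14 in TBI+PMI, 1.33, 1.44 and 1.23 in TBI+JM6, and 1.40 and 1.76 in TBI+E33 rats. All of these were above the highest TBI value of 0.836, a separation seen for 59% of the probes measured on all arrays. The log2 differences of Lamp2, 1.34 ± 0.27, 1.14 ± 0.27 and 1.38 ± 0.30, were called with all 3 drugs, and they kept their sign under the 5 scalings. With quantile normalization the call held for PMI (0.80) and was lost for JM6 (0.44) and E33 (0.67), and likewise with the 75th percentile of all probes (0.70, 0.35 and 0.55). With E1A scaling and with the GC trend removed the Lamp2 call was lost for all 3 drugs.

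For Lamp1, Ctsh, Ctsk, Lgmn, Ctsb and Ctsd the direction depended on the scaling. The sign of Ctss, whose TBI value stands for 1 rat, also turned, in 8 values over the settings tried. The log2 difference of Lamp1 was 0.59 ± 0.15, 0.76 ± 0.15 and 0.79 ± 0.17 with PMI, JM6 and E33, all called, and with the GC trend removed it was -0.44, -0.50 and -0.58, all called lower. Ctsh was 0.54 ± 0.18, 0.57 ± 0.18 and 0.58 ± 0.20, all called, and -0.37, -0.46 and -0.58 with the GC trend removed, of which the last 2 were called lower. Ctsk (0.87 ± 0.31 with JM6, 1.12 ± 0.35 with E33) and Lgmn (0.73 ± 0.28 and 0.85 ± 0.32) were called with JM6 and E33, and both turned negative, without a call, with the GC trend removed. With a rat left out, the Lgmn difference ran from 0.43 (without TBI replicate 1) to 1.01 with JM6, its call lost in 4 of 6 cases, and from 0.55 (without TBI replicate 1) to 1.14 with E33, lost in 3 of 5. The Ctsk difference with JM6 ran from 0.60 to 1.15 and lost its call without TBI replicate 3, TBI+JM6 replicate 2 or TBI+JM6 replicate 3. Lgmn on the drug arrays ranged from 3.72 to 6.76 and overlapped the TBI arrays at 2.16, 4.85 and 3.37. The differences of Ctsb (0.04 to 0.39), Ctsd (0.15 to 0.26) and Ctss were not called with any drug. Ctsb and Ctsd were called lower than TBI with all 3 drugs when arrays were scaled over all probes or the GC trend was removed. These settings also called many other probes lower with PMI, JM6 and E33, out of 22823 to 22826 tested. They were 2737, 3334 and 2768 with scaling over all probes, and 6811, 7394 and 7163 with the GC trend removed.

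**Figure D4:**
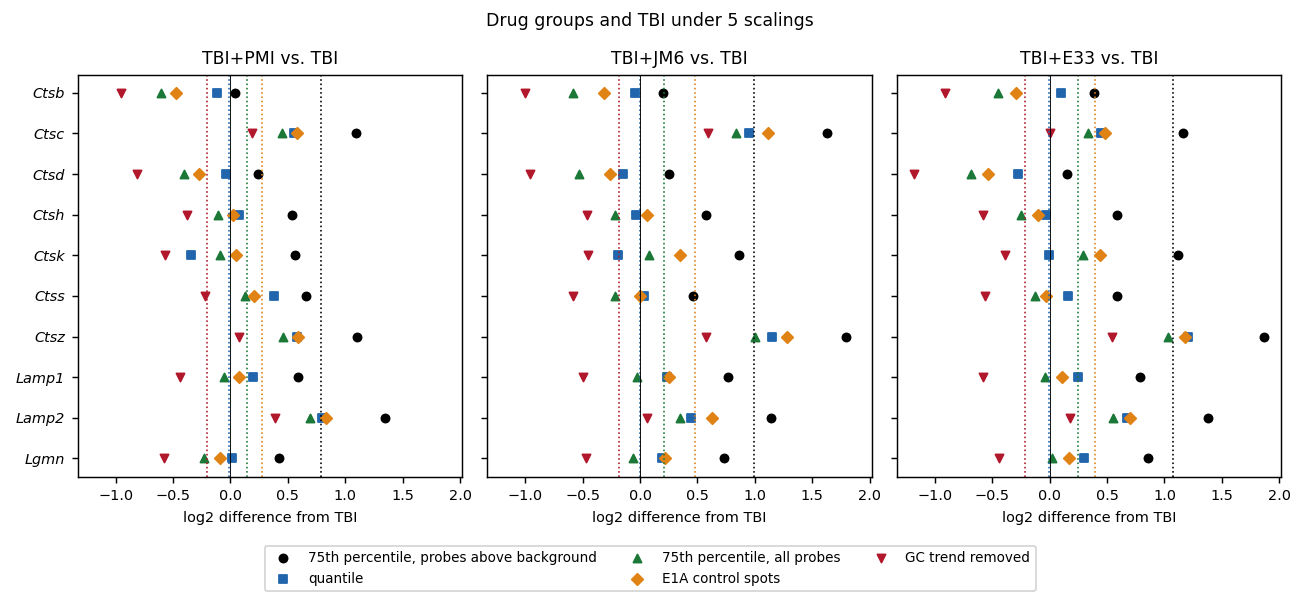
Log2 difference from TBI (x axis) of the 10 genes (y axis) in each drug group under 5 scalings (symbols), with the median of all tested probes under each as a dotted line of the same colour. Ctsz lay above 0 under all 5, from 1.10 to 0.07 with PMI, whereas Lamp1 ran from 0.59 to -0.44.

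Leukocyte markers summed to 8.04 to 15.3 with PMI, 12.6 to 15.04 with JM6 and 10.02 to 16.7 with E33, with 5, 6 and 6 of 11 tested called higher than in TBI rats, no larger a share than that of all probes. Of neuronal markers 6, 7 and 6 of 9 and of endothelial markers 4, 4 and 4 of 6 were called higher. Astrocyte markers summed to 73.9 to 80.7 with JM6 and E33, 58.9 to 64.5 with PMI and 47.2 to 52.2 in TBI rats. Microglial markers, at 30.7 to 43.1, overlapped the TBI rats. One TBI+PMI array had a choroid plexus sum of 152. Their part was not tested.

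Between drugs, which were scanned in one session, none of the 10 genes was called by limma. Over all probes 0.0131% were called higher and 0% lower in TBI+JM6 vs. TBI+PMI, 0.00876% and 0.0219% in TBI+JM6 vs. TBI+E33, and 0.0175% and 0.114% in TBI+PMI vs. TBI+E33. At an unadjusted p under 0.05 there were 1, 0 and 1 of the 10, beside 2018, 645 and 3424 of the 22827 probes. In both cases the gene was Ctsz. It was 0.69 ± 0.29 higher with JM6 than with PMI on the log2 scale (adjusted p 0.52, 95% interval 0.06 to 1.32), its 3 JM6 arrays lying above the 3 PMI arrays, and 0.53 within the slide that held both. With PMI it was 0.76 ± 0.33 lower than with E33 (a difference of -0.76, adjusted p 0.298, interval -1.47 to -0.05). JM6 and E33 differed in Ctsz by -0.07 ± 0.33, with an interval from -0.78 to 0.64, and by 0.01 within the slide that held both. The test of the study's methods without adjustment called Ctsc higher with JM6 than with PMI, where limma gave 0.53 ± 0.47 (adjusted p 0.786). The share of all probes called by that unadjusted test was not counted.

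Under the first scaling, and across both scanning sessions, the order of group means of Ctsz went from Naïve through Sham, TBI, TBI+PMI and TBI+JM6 to TBI+E33. Of the neighbours, Sham and TBI, TBI+PMI and TBI+JM6, and TBI+JM6 and TBI+E33 were not called apart. For Lgmn the order was the same, and of its neighbours none was called apart. Its place above TBI with JM6 and E33 turned with the GC trend removed. For Ctsc TBI+JM6 was above TBI+E33, and none of the neighbouring groups was called apart.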

How the data were processed

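RNA was amplified from poly(A)+ RNA with 1 of 2 kits, not stated for which rat, and hybridized to single-colour Agilent rat arrays. Per the file headers, the authors' Feature Extraction 9.5.3.1 gave each spot an intensity that was background subtracted and detrended within the array, with probe positions of rn4. The authors' matrix, as deposited, holds a linear ratio to the 75th percentile of each array, and was used as an alternative. Flags of the scanner files were used as deposited.

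Spots with an outlier flag were left out, and spots of a probe were averaged. Intensities were divided by the 75th percentile of the probes well above background on that array, and log2 was taken. Probes well above background on all arrays of at least 1 group were tested in a limma model without intercept over all 16 arrays (10 residual degrees of freedom), with p-values adjusted by Benjamini-Hochberg. The number of rats limits the precision, and p-values measure the spread between arrays within the groups. In drug vs. TBI they do not cover a difference between the scanning sessions. In TBI vs. Sham they do not cover a difference between the slides on which these groups lay. The model was tested on simulated data that held no session or slide differences, so that test does not bear on these. R 4.3.3, limma 3.58.1, data.table version 1.17.8, Python 3.11.15 and matplotlib 3.10.9 were used. For other genes the brightest tested probe was used. The genes and lists were chosen with earlier results of these data known. The rule for named genes was the 10 genes, the genes of each further lysosomal list called in TBI vs. Sham with the largest rise or fall (at most 3 each), and the 5 genes of most like profile. Of the listed marker types, astrocytes, oligodendrocytes, endothelial cells and red blood cells had 0, 0, 0 and 0 genes called higher and 0, 4, 1 and 0 called lower in TBI vs. Sham.

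The alternatives were a normexp background correction (offset 50), quantile normalization, scaling to all probes' 75th percentile, scaling to the E1A control spots, removal of a loess trend on probe GC content, no filter, the authors' matrix, a filter for brightness on all arrays, the methods' t-test (equal variances, adjusted, or unadjusted p under 0.05 with more than 1.2-fold), limma on the compared groups alone, slide or replicate number as a block, values within a slide, the mean of the probes of a gene, and each rat left out. Keeping flagged spots was added after seeing the data.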

Additional observations from a re-analysis of the deposited data

How the results depend on the processing

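Numbers of the 10 genes called moved with the processing, as did those of all probes. Counts given for all probes are out of the 22827 tested or slightly fewer, unless stated. A normexp correction called 0 higher in Sham vs. Naïve and in TBI vs. Naïve, and 2, 4 and 3 in PMI, JM6 and E33 vs. TBI. The same correction called 13, 35, 1435, 4884 and 3199 of all probes higher, in that order. Quantile normalization called 1 lower in TBI vs. Sham and 1, 1 and 1 higher with PMI, JM6 and E33, and the authors' matrix 1, 1 and 1. Among all probes quantile normalization called 968 lower in TBI vs. Sham and 2274, 3163 and 2376 higher with the drugs. For the authors' matrix the latter were 2298, 3124 and 2439. The 75th percentile over all probes called 1 higher and 1 lower in TBI vs. Sham, 2 higher in TBI vs. Naïve, and 1 higher and 2 lower with each drug. Beside these stood 1342 higher and 1480 lower of all probes in TBI vs. Sham, and 1013 higher in TBI vs. Naïve. For PMI, JM6 and E33, 5428, 6654 and 6454 of all probes were higher and 2737, 3334 and 2768 lower. E1A scaling called 0 in Sham vs. Naïve and 0, 1 and 0 with PMI, JM6 and E33. It called 345 of all probes higher in Sham vs. Naïve, and 4139, 6456 and 5216 higher with the drugs. With the GC trend removed 1 was higher in TBI vs. Sham, and with PMI, JM6 and E33 0 were higher and 3, 4 and 4 lower. Removing the trend called 1440 of all probes higher in TBI vs. Sham. For the 3 drugs 3535, 4291 and 4059 of all probes were higher and 6811, 7394 and 7163 lower. Probes above background on all arrays gave 3 higher in TBI vs. Naïve and 1 lower in TBI vs. Sham, with fewer probes tested. Of those 14295 probes, 698 were called higher in TBI vs. Naïve and 1577 lower in TBI vs. Sham. The adjusted t-test called 0 in Sham vs. Naïve and TBI vs. Naïve, 1 with PMI and 4 with JM6. With PMI and JM6 it called 8108 and 11840 of all probes higher. The unadjusted one called 2 higher in Sham vs. Naïve, 1 lower in TBI vs. Sham, 4 higher with JM6 and 1 in TBI+JM6 vs. TBI+PMI. The share of all probes called by the unadjusted test was not counted, so its counts cannot be set against the array. The compared groups alone, with fewer arrays, and the slide as a fixed block called 0 in Sham vs. Naïve and in TBI vs. Naïve. The slide as a random block (consensus correlation -0.09) called 2 higher in TBI vs. Naïve and 1 lower in TBI vs. Sham, beside 952 and 2548 of all probes. Beyond these constructions the cause was not tested.

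The replicate numbers did not pair the rats: correlations of same-numbered arrays lay between -0.19 and 0.18. With a replicate block 2 were called higher in TBI vs. Naïve, Ctsz and Lgmn, and 1 in TBI vs. Sham, Lgmn. Beside them 878 and 609 of all probes were called higher. With each rat left out the number called higher was 0 to 2 in TBI vs. Sham, 1 to 3 in TBI vs. Naïve, 0 to 1 in Sham vs. Naïve, 3 to 6 with PMI, 5 to 7 with JM6 and 3 to 7 with E33, and the number lower in TBI vs. Sham 0 to 1. Ctsz in TBI vs. Sham lay between -0.15 and 0.87.

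In drug vs. TBI the sign turned for 7 of the 10 genes, in 70 of 447 values under other settings and 4 of 167 with a rat left out; Ctsz, Ctsc and Lamp2 did not turn. With PMI, JM6 and E33 and the 75th percentile over all probes, Ctsb was -0.60, -0.59 and -0.44, Ctsd -0.41, -0.53 and -0.68, Ctsh -0.11, -0.22 and -0.25 and Lamp1 -0.06, -0.02 and -0.04, and Lgmn was -0.06 with JM6. With the GC trend removed Ctsb was -0.95, -1 and -0.91, Ctsd -0.81, -0.96 and -1.18, Ctsh -0.37, -0.46 and -0.58, Lamp1 -0.44, -0.50 and -0.58, and with JM6 and E33 Ctsk -0.45 and -0.39 and Lgmn -0.47 and -0.44. E1A scaling gave Ctsb -0.47, -0.31 and -0.30, Ctsd -0.27, -0.26 and -0.53, and Ctsh -0.10 with E33. Quantile normalization gave Ctsd -0.04, -0.15 and -0.28, Ctsb -0.12 and -0.05 with PMI and JM6, and with JM6 and E33 Ctsh -0.04 and -0.03 and Ctsk -0.19 and -0.004. The authors' matrix gave Ctsd -0.03, -0.14 and -0.27, Ctsb -0.12 and -0.05 with PMI and JM6, Ctsh -0.03 and -0.01 with JM6 and E33, and Ctsk -0.16 with JM6. Normexp gave Ctsb -0.004 and Ctsd -0.02 with PMI. With a rat left out Ctsb with PMI lay between -0.10 and 0.19 and Ctsd with E33 between -0.03 and 0.30. Elsewhere Lamp1 in TBI vs. Naïve was 0.19 with E1A, and Ctsz in TBI+JM6 vs. TBI+E33 was 0.10 with E1A, 0.03 with the GC trend removed, 0.01 with the slide as a fixed block and within the slide, and -0.29 to 0.15 with a rat left out. Over all 10 genes 21 of 477 values among Naïve, Sham and TBI rats changed sign, and 17 of 158 with a rat left out. Each gene had 1 probe, so the mean over probes changed only the number of tests. The number of rats and 1 spot per gene limit all values.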
